A study of Mus musculus with 4 samples.

Results

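Rassf1, Rassf2, Rassf3 and Rassf8 of the Ras association domain family and Stk3, Stk4, Lats1, Lats2, Yap1 and Wwtr1 of the Hippo pathway were followed in 3T3-L1 cells treated with risperidone. They are the 10 rows with these gene symbols in a table of 16051 genes. The genes were chosen by their family and pathway and with their read counts and FPKM in these same libraries known, so the difference of each one between the treatments is given as a description, without a test. Compared with controls, risperidone-treated cells held 7.11 times as much Rassf2 mRNA by FPKM, more Rassf1, Stk3 and Wwtr1, and less Stk4, Lats2 and Rassf8, while Lats1 overlapped between the treatments. FPKM counts fragments per length of transcript and per number of mapped fragments, so that genes of different length can be set side by side.

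3T3-L1 is a mouse line of embryo fibroblasts that forms adipocytes in culture, and the labels give the strain NIH SWISS and the tissue as embryo. By the study's methods, differentiated 3T3-L1 cells received DMSO as vehicle (libraries RNC1 and RNC2, 0 µM risperidone) or 100 µM risperidone, an antipsychotic (RIS1 and RIS2), for 48 h, and RNA from 3 cultures was pooled for each library. The labels call the control cells untreated and name an extraction from retinas, which the study's methods do not mention. With 2 libraries a treatment and pooled cultures, the spread given here is that between libraries and not between single cultures.

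The Hippo pathway is a chain of kinases that restrains growth. Stk3 (MST2) and Stk4 (MST1) activate Lats1 and Lats2, and these phosphorylate the coactivators Yap1 (YAP) and Wwtr1 (TAZ), which are then held in the cytoplasm or degraded. Unphosphorylated YAP and TAZ enter the nucleus and act through the TEAD transcription factors. Several RASSF proteins carry a SARAH domain, the same kind of domain through which the MST kinases pair with each other and with their cofactor Sav1, and several RASSF genes are known as tumour suppressors that are silenced in cancers. In fat cell precursors, TAZ is known as a corepressor of PPARγ, the receptor that drives adipocyte formation. These roles run through phosphorylation and location of proteins, which mRNA levels do not show.

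The sequences before the start sites of Rassf2, Wwtr1 and Yap1 are shown because each holds the short TEAD motif, and those of the YAP and TAZ target genes Cyr61 and Amotl2 are shown beside them because both genes changed with risperidone and hold the motif. Ankrd1, Crim1 and Axl, targets that also rose, hold the motif too and are not shown. F3, Tgfb2 and Gadd45b, targets that also changed, had no match in their windows. Each line holds the 250 bases before a RefSeq start site on GRCm38.p6, on the strand of the gene, with the motif CATTCC or its reverse complement GGAATG in capitals.
Rassf2: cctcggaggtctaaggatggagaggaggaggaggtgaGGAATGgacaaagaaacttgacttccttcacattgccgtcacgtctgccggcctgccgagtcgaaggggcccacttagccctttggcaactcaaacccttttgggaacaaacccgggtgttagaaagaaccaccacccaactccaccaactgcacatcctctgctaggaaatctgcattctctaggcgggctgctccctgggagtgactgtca
Wwtr1: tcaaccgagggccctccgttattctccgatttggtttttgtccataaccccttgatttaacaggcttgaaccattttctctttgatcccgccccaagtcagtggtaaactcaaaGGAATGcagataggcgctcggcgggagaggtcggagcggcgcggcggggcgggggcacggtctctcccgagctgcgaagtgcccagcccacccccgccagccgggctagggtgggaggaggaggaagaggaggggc
Yap1: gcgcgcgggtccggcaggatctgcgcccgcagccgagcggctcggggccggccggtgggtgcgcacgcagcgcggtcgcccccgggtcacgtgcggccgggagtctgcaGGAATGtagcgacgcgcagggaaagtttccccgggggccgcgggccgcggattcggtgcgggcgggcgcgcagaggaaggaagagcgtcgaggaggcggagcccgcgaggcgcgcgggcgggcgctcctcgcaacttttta
Cyr61: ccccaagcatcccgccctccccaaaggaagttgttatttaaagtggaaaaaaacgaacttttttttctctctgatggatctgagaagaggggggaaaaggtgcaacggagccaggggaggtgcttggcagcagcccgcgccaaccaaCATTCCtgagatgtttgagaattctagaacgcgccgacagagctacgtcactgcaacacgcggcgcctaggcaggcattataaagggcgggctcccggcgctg
Amotl2: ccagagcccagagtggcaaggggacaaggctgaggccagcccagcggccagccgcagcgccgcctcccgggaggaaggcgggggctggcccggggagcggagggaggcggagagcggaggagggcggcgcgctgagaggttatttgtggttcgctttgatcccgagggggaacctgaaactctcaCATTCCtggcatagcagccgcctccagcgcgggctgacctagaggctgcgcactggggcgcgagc
The windows lie at chr2:132030325-132030574 (minus strand) for Rassf2, chr3:57575911-57576160 (minus) for Wwtr1, chr9:8004597-8004846 (minus) for Yap1, chr3:145649986-145650235 (minus) for Cyr61 and chr9:102717554-102717803 (plus) for Amotl2. The start sites used for Rassf2 and Yap1 lie inside the longer span of the annotated gene. The motif begins 213 bases before the start of Rassf2, 136 before that of Wwtr1, 141 before that of Yap1, 103 before that of Cyr61 and 65 before that of Amotl2. In windows of 250 bases before to 50 after the start, the motif was found in 5 of 10 windows of 7 members, in 5 of 14 windows of 13 target genes and in 14.7% of all 32851 RefSeq windows. The other member with a match was Lats2, and the 5 windows of members include both overlapping windows of Wwtr1. Windows of Rassf1, Stk4 and Lats1 had no match, and no window was at hand for Rassf3, Rassf8 and Stk3. A match is a description of letters and was not tested as a binding site.

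The 4 libraries held 15883712 to 16374119 estimated counts. Of 10 adipocyte markers, 4 stayed under 1 FPKM in every library, among them Adipoq and Plin1, while Fabp4 and Lpl were present in all. The summed level of the 10 adipocyte markers was 441 to 498 FPKM in the control libraries and 332 to 341 FPKM with risperidone. In the edgeR fit, Fabp4, Lpl and Lipe fell, Pnpla2 (54.9 and 58.3 against 62.8 and 61.4 FPKM) rose, and Pparg and Cd36 did not pass the test. The summed level of 8 preadipocyte and fibroblast markers was 582 to 588 FPKM in controls and 915 to 944 FPKM with risperidone. Most of the latter rise was that of Col1a1, from 380 and 368 FPKM to 715 and 674 FPKM. Dlk1 and Thy1 were also higher in both risperidone libraries, while Col3a1 (105 and 109 against 49.3 and 53.8 FPKM), Pdgfrb (21.8 and 20.2 against 13.1 and 14.6 FPKM) and Pdgfra (13.47 and 13.34 against 11.95 and 12.56 FPKM) were lower in both. The 4 retina markers with a row were under 1 FPKM in every library. Markers of kidney tubule summed to 1.93 to 3.19 FPKM in the other 3 libraries and to 221 FPKM in RIS2, where 15 of 15 were highest. Markers of macrophages and blood summed to 2.87 to 4.10 FPKM in controls and 6.71 to 9.68 FPKM with risperidone, and endothelial markers to at most 0.54 FPKM. Most of the macrophage and blood rise was that of Cd68, from 2.64 and 3.50 FPKM to 6.34 and 6.70 FPKM. Ptprc, Csf1r and Lyz2 stayed at or under 0.55 FPKM. Hba-a1 (1.97 FPKM) and Hbb-bs (0.61 FPKM) were found in RIS2 only. The part of these markers in the levels described here was not tested, and values without RIS2 are given where they matter.

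Of the 10 members, 9 had a mean of at least 1 FPKM and entered the fit over 10243 genes, and Rassf3 did not. In FPKM, 4 of the 9 were higher in both risperidone libraries than in both control libraries (Rassf1, Rassf2, Stk3 and Wwtr1), 4 were lower in both (Rassf8, Stk4, Lats2 and Yap1) and Lats1 overlapped. Of all genes in the fit, 32.4% were higher without overlap and 49.8% lower without overlap. By the quasi-likelihood test of edgeR, with p-values adjusted by Benjamini-Hochberg over these genes, 32.1% of them rose and 32.2% fell at an adjusted p under 0.05, so a difference between the treatments was common among all genes.

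**Figure D1:**
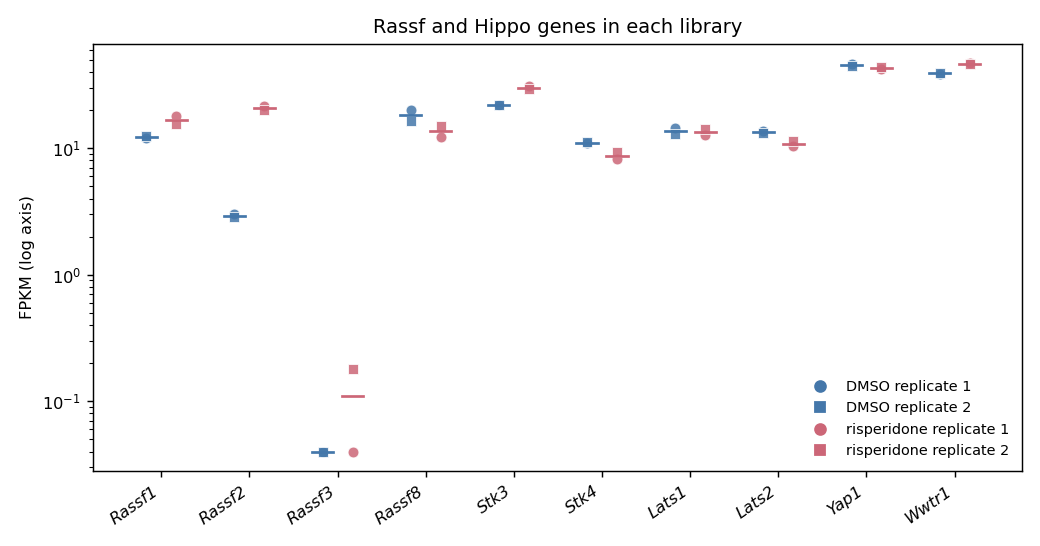
FPKM of each member (log axis) in the control libraries RNC1 and RNC2 and the risperidone libraries RIS1 and RIS2, 1 point a library and a short line at the mean, with the control libraries named DMSO replicate 1 and 2 in the legend. Rassf2 shows the widest gap, from 2.84 and 3.03 FPKM to 20.0 and 21.7 FPKM, while the points of Lats1 lie among each other and Rassf3 stays at or under 0.18 FPKM.

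Rassf2 (NCBI Gene 215653, chr2:131992850-132030416, minus strand, GRCm38.p6) encodes a RASSF protein with a SARAH domain that binds the MST kinases. Its estimated counts were 224 and 203 in RNC1 and RNC2 and 1604 and 1453 in RIS1 and RIS2, or 3.03 and 2.84 FPKM against 21.7 and 20.0 FPKM. Both risperidone libraries were far above both controls. The fitted difference was 2.93 on the log2 scale (SE 0.0820), a fold of 7.64, which stood 27th from the top among the 10243 genes. Genes ranked above it included kidney tubule markers that were high in RIS2 alone, such as Slc34a1 at 6.47 (SE 1.69) and Kap at 5.74 (SE 1.46). A change in the number of cells that express a gene and a change in its RNA per cell cannot be told apart in such bulk libraries. Among genes with a mean above 0 FPKM in the treatment, Rassf2 stood at percentile 38.3 in controls and at 75.2 with risperidone.

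Rassf1 (56289, chr9:107551434-107562267, plus strand) encodes a tumour suppressor that is often silenced by promoter methylation in cancers. It had 12.1 and 12.4 FPKM in controls and 18.04 and 15.42 FPKM with risperidone, from counts of 316 and 316 against 470 and 398. The risperidone libraries were both higher and differed more from each other than the controls did, with 12.2 ± 0.247 (SD, n = 2) against 16.7 ± 1.85 FPKM. The difference was 0.55 on the log2 scale (SE 0.0889). In the GENCODE annotation, 42.7% of the exonic bases of Rassf1 overlap Gm9917 on the opposite strand, and the strand setting of the counting is not given in the sources used here.

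Rassf8 (71323, chr6:145746561-145821079, plus strand) belongs to the subgroup of the family that carries its Ras association domain near the amino terminus and lacks a SARAH domain. Its level was 20.0 and 16.5 FPKM in controls and 12.4 and 14.9 FPKM with risperidone, lower in both. Counts were closer, at 1369 and 1348 against 1012 and 1173, and the fitted difference was −0.22 (SE 0.0748) by counts. RNC1 held fewer counts per unit of FPKM for this gene than the other libraries, and the ratio of the highest to the lowest of these values, 1.24, was larger than in 99.3% of 8816 genes with at least 100 counts, whose median was 1.01. On log2(FPKM + 0.1) the difference was −0.42, while by counts it was −0.11 without RIS1 and −0.34 without RIS2, and −0.13 with an offset for gene length.

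Rassf3 (192678, chr10:121410350-121476250, minus strand) had 2, 2, 2 and 9 counts in RNC1, RNC2, RIS1 and RIS2. A count of 0 allows up to 3 counts, so 3 of the libraries were at the limit of what this depth shows, and the highest value came from the library with the kidney transcripts. No fold is given for it. Rassf2 made up 8.62% and 8.95% of the summed FPKM of these 4 Rassf genes in controls and 41.6% and 39.6% with risperidone, while the share of Rassf8 was 57.0% and 51.8% against 23.7% and 29.5%. The share of Rassf1, 34.3% and 39.1% against 34.6% and 30.5%, overlapped between the treatments. The sum itself was 35.2 and 31.7 FPKM in controls and 52.1 and 50.5 FPKM with risperidone. Rassf1 was the higher of Rassf1 and Rassf2 in controls, at a Rassf2 to Rassf1 ratio of 0.251 and 0.229, and the lower with risperidone, at 1.20 and 1.30.

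**Figure D2:**
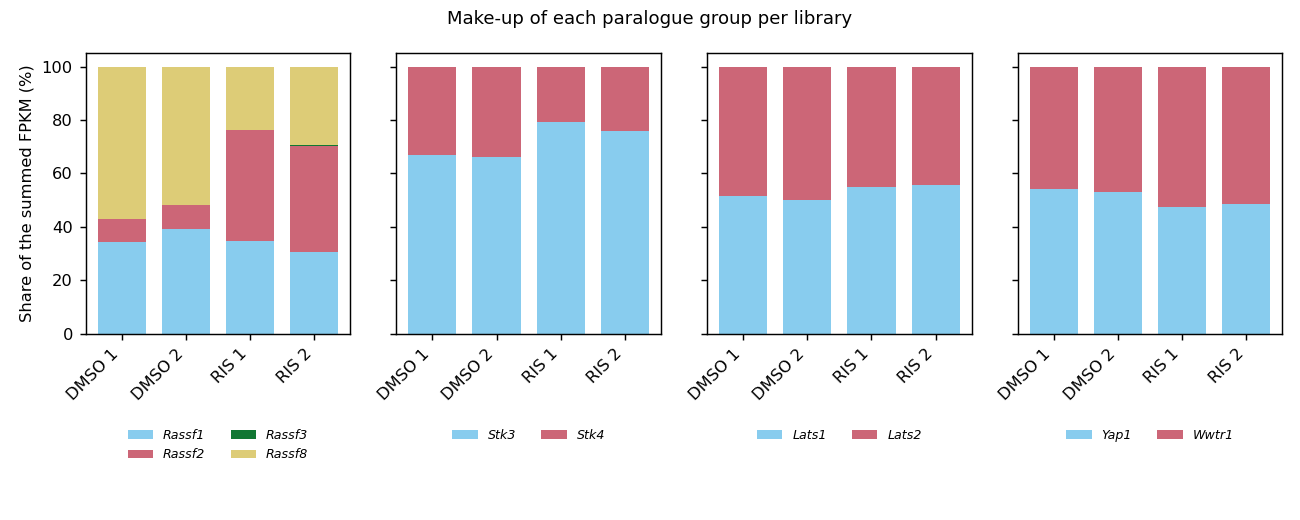
Share of the summed FPKM (percent, axis from 0) that each gene takes within the 4 Rassf members, Stk3 with Stk4, Lats1 with Lats2, and Yap1 with Wwtr1, 1 bar a library (DMSO 1 and 2 for RNC1 and RNC2). Rassf2 goes from 8.62% and 8.95% in the control libraries to 41.6% and 39.6% with risperidone, and Wwtr1 from 45.7% and 46.8% to 52.4% and 51.5%.

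Stk3 (56274, chr15:34875499-35155882, minus strand) and Stk4 (58231, chr2:164074113-164155524, plus strand) encode the upstream MST kinases, and they differed in opposite directions. Stk3 had 22.1 and 21.9 FPKM in controls and 31.1 and 29.1 FPKM with risperidone, on counts of 977 and 946 against 1353 and 1262. Both risperidone libraries were higher, by 0.54 on the log2 scale (SE 0.0621). Stk4 had 10.9 and 11.1 FPKM in controls and 8.21 and 9.27 FPKM with risperidone, on counts of 904 and 895 against 674 and 750. Both risperidone libraries were lower, a log2 difference of −0.24 (SE 0.0706) that was −0.16 without RIS1 and −0.15 with the length offset. Stk3 therefore made up 66.9% and 66.2% of the pair in controls and 79.1% and 75.9% with risperidone, and the summed level of the pair was 33.0 FPKM in each control library and 39.3 and 38.4 FPKM with risperidone. The ratio of Rassf2 to the summed MST kinases was 0.0918 and 0.0861 in controls and 0.552 and 0.521 with risperidone.

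Lats1 (16798, chr10:7681200-7716461, plus strand) and Lats2 (50523, chr14:57689662-57746212, minus strand) encode the kinases that phosphorylate YAP and TAZ. Lats1 had 14.47 and 13.03 FPKM in controls and 12.7 and 14.1 FPKM with risperidone, and the treatments overlapped. Its fitted difference was 0.06 (SE 0.0674), with counts of 1671 and 1455 against 1457 and 1588. Lats2 had 13.7 and 13.1 FPKM in controls and 10.4 and 11.3 FPKM with risperidone, on counts of 1130 and 1041 against 857 and 906. It was lower in both risperidone libraries, a log2 difference of −0.21 (SE 0.0664) that was −0.12 with the length offset and −0.42 on log2(TPM + 1). Of its exonic bases, 42.4% overlap Gm49361, which is annotated on the same strand, and the part of that overlap in the counts was not tested. Lats1 took 51.5% and 49.9% of the pair in controls and 54.9% and 55.5% with risperidone.

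Yap1 (22601, chr9:7931999-8004638, minus strand) and Wwtr1 (97064, chr3:57455644-57575910, minus strand) encode the coactivators at the end of the pathway. Yap1 had 46.3 and 44.8 FPKM in controls and 42.6 and 43.7 FPKM with risperidone. It was slightly lower in FPKM in both risperidone libraries, but by counts (3021 and 2840 against 2783 and 2789) the fitted difference was 0.02 (SE 0.0456), and its sign changed with the scaling. Wwtr1 had 38.9 and 39.4 FPKM in controls and 46.8 and 46.4 FPKM with risperidone, on counts of 2940 and 2891 against 3517 and 3426. It was higher in both risperidone libraries, by 0.35 (SE 0.0446), a difference that was 0.11 on log2(TPM + 1) and 0.25 with library size as the only scaling. The ratio of Wwtr1 to Yap1 was 0.841 and 0.881 in controls and 1.10 and 1.06 with risperidone, so the order of the 2 coactivators turned.

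**Figure D3:**
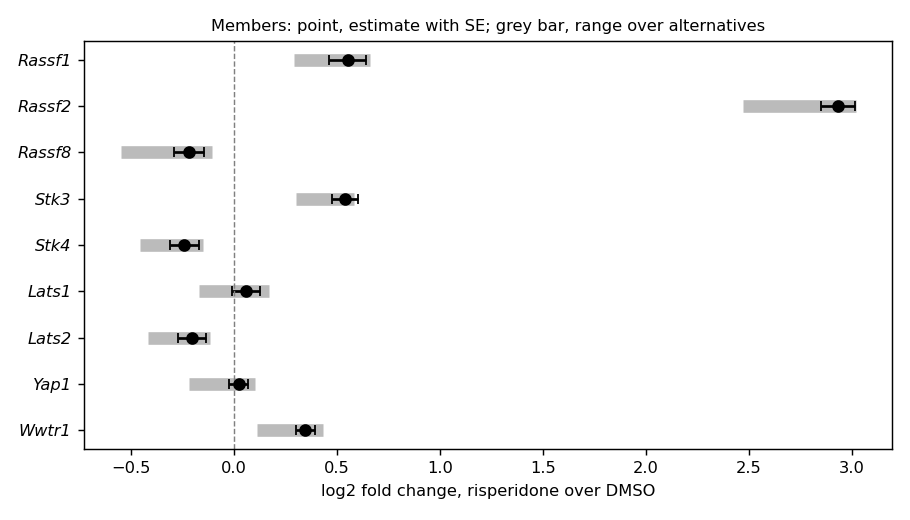
Fitted log2 fold change (risperidone over control) of the 9 members in the fit, with black bars of 1 standard error, and grey bars for the range over the alternatives. Rassf2 stands at 2.93, Rassf1 and Stk3 at 0.55 and 0.54, Wwtr1 at 0.35, Yap1 and Lats1 near 0, and Lats2, Rassf8 and Stk4 at −0.21, −0.22 and −0.24.

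By mean FPKM, the order in controls was Yap1 (45.5), Wwtr1 (39.2), Stk3 (22.0), Rassf8 (18.2), Lats1 (13.8), Lats2 (13.4), Rassf1 (12.2), Stk4 (11.0), Rassf2 (2.94) and Rassf3, and of the neighbours in this order only Lats1 and Lats2 overlapped between libraries. With risperidone, Wwtr1 (46.6) stood first, followed by Yap1 (43.1), Stk3 (30.1), Rassf2 (20.9), Rassf1 (16.7), Rassf8 (13.6), Lats1 (13.4), Lats2 (10.9), Stk4 (8.74) and Rassf3. Here only Rassf8 and Lats1 overlapped among neighbours. Rassf2 moved from the ninth place to the fourth. Without RIS2, the log2 differences were 3.00 for Rassf2, 0.66 for Rassf1, 0.58 for Stk3, 0.36 for Wwtr1, 0.02 for Yap1, −0.01 for Lats1, −0.25 for Lats2, −0.33 for Stk4 and −0.34 for Rassf8, so only that of Lats1, near 0, changed its sign.

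Among the genes whose profile over the 4 libraries was nearest to that of Rassf2, by the Euclidean distance between centred log2(FPKM + 1) values, were Pim1 (distance 0.246), Cyr61 (0.473), Ddit3 (0.549) and Nr1d1 (0.618). Pim1, a survival kinase, had 2.03 and 1.82 FPKM in controls and 17.2 and 12.4 FPKM with risperidone. Ddit3, the stress-induced factor CHOP, had 108 and 114 FPKM in controls and 504 and 383 FPKM with risperidone, and Nr1d1, the clock repressor REV-ERBα, had 17.7 and 16.5 against 72.4 and 58.5 FPKM. With 4 libraries the likeness amounts to a like rise between the treatments.

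Of 66 other genes of the pathway, listed from general knowledge by role, 61 had a row and 55 were in the fit. In edgeR's test, 13 of the 55 rose (23.6%) and 21 fell (38.2%), against 32.1% and 32.2% of all genes, and the median difference was −0.06, against 0.00 for all genes. The split depended on the scaling: 7 rose and 36 fell on log2(TPM + 1), where the median of all genes was −0.22, 11 rose and 29 fell with library size as the only scaling, and 18 rose and 18 fell with an offset for gene length. Of all 10243 genes, 1536 rose and 5292 fell on log2(TPM + 1). With library size only, 2500 rose and 4092 fell, and with the length offset 3398 rose and 3283 fell. Without RIS2, 15 rose and 21 fell.

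Among the other Rassf genes, Rassf5, whose product binds Ras and the MST kinases, rose from 2.43 and 2.14 FPKM to 3.94 and 3.46 FPKM, by 0.79 on the log2 scale (SE 0.146, adjusted p = 0.000664 in edgeR). Rassf7 had 4.37 and 4.51 FPKM in controls and 3.63 and 3.80 FPKM with risperidone, a fitted difference of −0.15 (SE 0.167, adjusted p = 0.452). Rassf4, Rassf6 and Rassf9 were at or under 0.19 FPKM in every library, and Rassf10 was not analysed here.

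Of 13 cofactors and related kinases in the fit, 9 fell (69.2%, against 32.2% of all genes) and 0 rose (against 32.1%) in edgeR's test, with 0 higher also at an unadjusted p under 0.05 and with DESeq2, which called 7 lower. On log2(TPM + 1), 12 fell, where 5292 of all 10243 genes fell and 1536 rose. With the length offset, 7 fell and Taok1 rose, and without RNC1 or RNC2, 6 fell. The group's median difference was −0.18. Stk38, an NDR kinase related to the LATS kinases, fell from 44.7 and 46.5 FPKM to 27.4 and 29.7 FPKM, a log2 difference of −0.67 (SE 0.0520, adjusted p = 1.27e-06 in edgeR). Mob1b and Mob1a encode the adaptors that LATS kinases need for activation. Mob1b fell from 9.17 and 8.66 to 4.79 and 5.49 FPKM, a log2 difference of −0.70 (SE 0.0895, adjusted p = 4.92e-05 in edgeR), and Mob1a fell from 109 and 112 to 80.5 and 82.9 FPKM, a log2 difference of −0.29 (SE 0.0453, adjusted p = 0.000225). Sav1, the scaffold of the MST kinases, had 35.5 and 34.9 FPKM in controls and 29.0 FPKM in each risperidone library, a difference of −0.18 (SE 0.0577, adjusted p = 0.0161 in edgeR), and this call was lost with DESeq2 (adjusted p = 0.0647) and without RNC1 (0.147) or RNC2 (0.0741). Stk38l and Taok2 also fell, with log2 differences of −0.52 and −0.49.

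Of 10 upstream scaffolds and junction proteins in the fit, 2 rose and 4 fell, against 32.1% and 32.2% of all genes. On log2(TPM + 1), 1 rose and 7 fell, and with library size as the only scaling, 2 rose and 6 fell. Of all 10243 genes, 1536 rose and 5292 fell on the former, and 2500 rose and 4092 fell with the latter. Wwc1, which encodes the scaffold KIBRA, rose from 1.42 and 1.35 FPKM to 2.20 and 3.08 FPKM, by 1.03 (SE 0.194, adjusted p = 0.000794 in edgeR). Its difference was 0.77 without RIS2, the library with the kidney transcripts, and 1.24 without RIS1. Amot, an angiomotin that binds YAP, rose by 0.42, a call lost on log2(TPM + 1) at 0.18. Dlg5, the giant cadherins Fat1 and Fat4, and Frmd6 fell, with log2 differences of −0.60, −0.54, −0.47 and −0.49. With the length offset, Fat1 was at −0.31 and Fat4 at −0.23, and Fat4 was at −0.29 without RNC1. Nf2, which encodes the membrane-linked scaffold merlin, had 31.3 and 28.1 FPKM in controls and 25.01 and 25.51 FPKM with risperidone, a difference of −0.11 (adjusted p = 0.0647 in edgeR), and it passed the test as lower in 6 of 15 alternatives, down to −0.37.

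Of 17 inhibitors of the kinases, which include the LIM proteins that bind LATS and the STRIPAK phosphatase complex that acts on MST kinases, 5 rose and 5 fell in edgeR (29.4% each), near the 32.1% and 32.2% of all genes. On log2(TPM + 1), 2 rose and 10 fell, where 1536 of all 10243 genes rose and 5292 fell. Those that rose included Wtip (0.66), Mark4 (0.46), Stk25 (0.41) and Strn4 (0.29), and those that fell included Mark2 (−0.62), Ajuba (−0.28), Strn (−0.26) and Sike1 (−0.26), all in log2 units. On log2(TPM + 1), Mark4 lost its call at 0.16 and Strn4 was at 0.04. Strn was at −0.60 on that scale and at −0.15 with the length offset. DESeq2 called 4 higher and 2 lower, so some of the falls named above lost their call there. Library size as the only scaling gave 4 higher and 8 lower, and the length offset 7 higher and 4 lower. Of 7 genes for the turnover or cytoplasmic anchoring of YAP and TAZ, the kinase gene Csnk1e (0.60) and the ubiquitin ligase gene Fbxw11 (0.40) rose and the 14-3-3 genes Ywhaz (−0.46) and Ywhab (−0.45) fell. On log2(TPM + 1), Csnk1e was at 0.36, Fbxw11 at 0.16, Ywhaz at −0.69 and Ywhab at −0.69. With 2 of 7 each way in edgeR, the calls were near the shares of all genes. With the length offset, 4 rose and 2 fell. Without RIS2, 5 of the 7 rose, and without any 1 of the other libraries 2 rose.

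The TEAD factors carry YAP and TAZ to DNA, and of 6 TEAD and cofactor genes in the fit, 3 rose and 1 fell, against 32.1% and 32.2% of all genes. The split turned with the scaling, with 1 higher and 3 lower on log2(TPM + 1), and 2 higher and 3 lower with library size as the only scaling and on both log2(FPKM) scales. Of all 10243 genes, 1536 rose and 5292 fell on log2(TPM + 1), and 2500 rose and 4092 fell with library size only. On the log2(FPKM) scales, 2420 and 2423 rose and 3975 and 3971 fell. Tead4 rose from 9.98 and 8.77 FPKM to 15.9 and 14.6 FPKM, by 0.79 (SE 0.0745, adjusted p = 5.17e-06 in edgeR), and Tead1 rose from 18.6 and 17.1 to 21.8 and 21.3 FPKM, by 0.40 (SE 0.0473, adjusted p = 2.92e-05), a call lost on log2(TPM + 1) at 0.13. Vgll4, a repressor that competes with YAP for TEAD, fell from 85.6 and 83.8 FPKM to 46.5 and 47.3 FPKM, a log2 difference of −0.62 (SE 0.0475, adjusted p = 1.20e-06 in edgeR). Tead2 had 30.9 and 29.2 FPKM in controls and 30.4 and 32.6 FPKM with risperidone, which overlap, and its rise of 0.17 (adjusted p = 0.0464 in edgeR) turned to −0.07 on log2(TPM + 1). The call of Tead2 was lost or turned in 11 of 15 alternatives, among them DESeq2 and the fits without RNC1 (0.21), RNC2 (0.12) or RIS2 (0.12), values being log2 differences. Tead3 differed by −0.10 (adjusted p = 0.202 in edgeR) and passed the test as lower in 4 of 15 alternatives, down to −0.34.

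**Figure D4:**
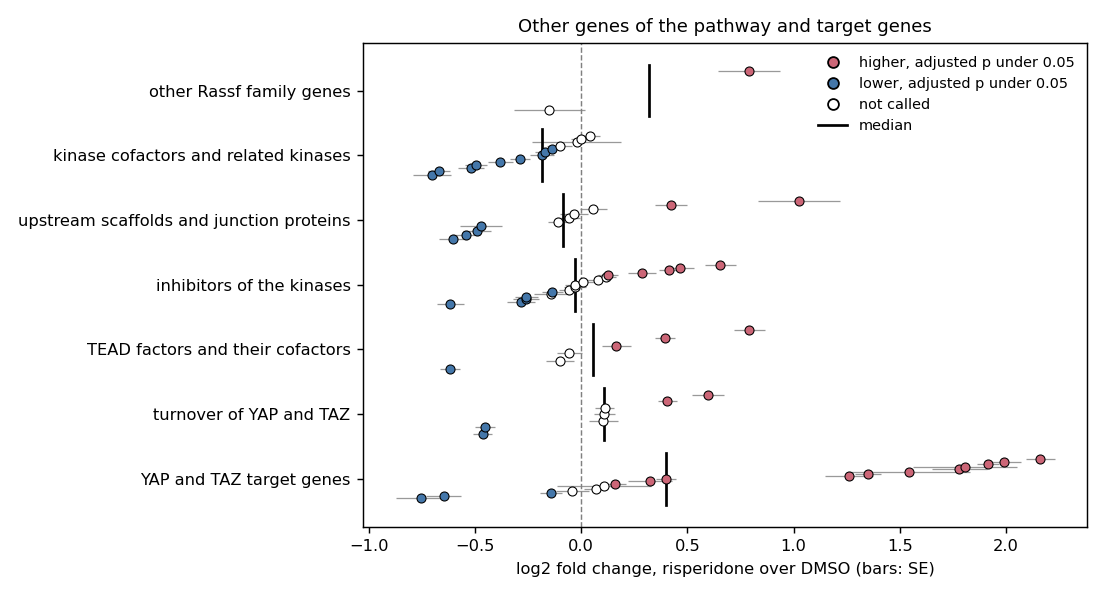
Fitted log2 fold change (risperidone over control) of the 55 other pathway genes and the 17 target genes in the fit, by role, 1 point a gene with its standard error and a black line at the median of the role, where red points rose, blue points fell and white points did not pass an adjusted p of 0.05. Among the 13 cofactors and related kinases 9 are called lower and 0 higher. The TEAD factors taken with their cofactors, and the inhibitors of the kinases, hold calls on both sides, a split that moved with the scaling. In the former role the lower call is that of the cofactor Vgll4.

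A list of 20 YAP and TAZ target genes, also written from general knowledge and without Lats2, had 17 genes in the fit. In edgeR's test, 11 of the 17 rose (64.7%) and 3 fell (17.6%), with a median difference of 0.40, against 32.1%, 32.2% and 0.00 for all genes. On log2(TPM + 1), 9 rose and 4 fell and the median was 0.15. Of all 10243 genes, 1536 rose and 5292 fell on that scale, with a median of −0.22. Without RIS2, 11 rose and 3 fell. The list was written with earlier results of these data known, and the summed fibroblast markers given above were also higher in both risperidone libraries, with single markers going both ways. The part of these markers in the count was not tested.

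Cyr61 (now Ccn1), a matricellular protein and a standard readout of YAP, rose from 17.7 and 17.5 FPKM to 77.2 and 70.2 FPKM, by 2.16 (SE 0.0673, adjusted p = 5.12e-09 in edgeR). Amotl2, an angiomotin that restrains YAP, rose from 25.5 and 24.9 FPKM to 102 and 85.1 FPKM, by 1.99 (SE 0.0806, adjusted p = 2.09e-08). F3, tissue factor, rose from 38.0 and 35.5 FPKM to 129 and 130.1 FPKM, by 1.92 (SE 0.0511, adjusted p = 2.84e-09 in edgeR). In each of these the risperidone libraries lay far above the controls. Ctgf (now Ccn2) and Ankrd1 rose from low levels. Ctgf went from 22 and 19 counts to 66 and 69 counts, by 1.81 (SE 0.244, adjusted p = 7.16e-05 in edgeR), and Ankrd1 from 20 and 15 counts to 53 and 43 counts, by 1.54 (SE 0.285, adjusted p = 0.000687). At such low levels the difference depended on the scale, from 0.87 to 1.90 for Ctgf (Ccn2) and from 0.76 to 1.74 for Ankrd1 over the alternatives, with the lowest values on log2(FPKM + 1).

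The growth factor gene Tgfb2 rose by 1.78, Crim1 by 1.35 and the stress-response gene Gadd45b by 1.26 on the log2 scale. Smaller rises were those of Axl (0.40), Rbms3 (0.32) and Arhgef17 (0.16). On log2(TPM + 1), Arhgef17 turned to −0.08, Rbms3 was at 0.06 and Axl at 0.15. Foxf2, Ccdc80 and Myof fell, with log2 differences of −0.75, −0.65 and −0.14, and Asap1, Dock5 and Nuak2 did not pass the test. The difference of Myof (adjusted p = 0.0343 in edgeR) was −0.03 with the length offset and −0.09 without RNC1, and 2 target genes fell under each of these. Igfbp3 had 0 counts in RNC1, RNC2 and RIS1 and 39 counts in RIS2, the library with the kidney transcripts, and Nt5e had 0, 0, 1 and 16 counts, so both were left out of the fit by their low mean, as was Fjx1.

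**Figure D5:**
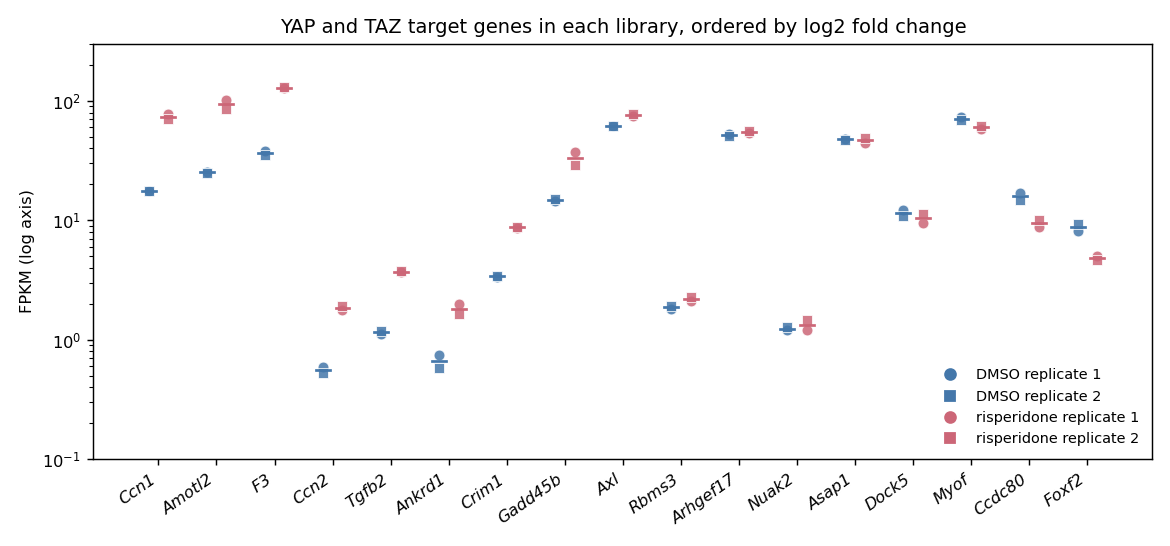
FPKM (log axis) of the 17 YAP and TAZ target genes in the 4 libraries, ordered by log2 fold change, 1 point a library and a short line at the mean. Cyr61 (drawn as Ccn1), Amotl2 and F3 lie at 17.5 to 38.0 FPKM in the control libraries and at 70.2 to 130.1 FPKM with risperidone, while Foxf2 and Ccdc80 lie lower with risperidone.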

How the data were processed

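The members and gene lists were chosen with earlier results of these data known. For each of 4 libraries, sequenced as mRNA on MGISEQ-2000, the authors deposited an estimated read count (expected count, not normalized), FPKM and TPM for each gene. FPKM is scaled by the authors for gene length and library size, and the deposited TPM has an equal total in every library. The submitters' processing notes name Bowtie2, RSEM, DESeq2 and GRCm38.p6, without roles or versions. Group averages in the table were not used. Rounded counts went through edgeR 4.0.16 in R 4.3.3 (TMM, two-sided quasi-likelihood F-test, Benjamini-Hochberg, threshold 0.05) for all genes whose mean reached 1 FPKM. The standard error of a log2 fold change is its size over the root of F. Totals were 16374119 and 15883712 counts for RNC1 and RNC2 and 16269448 and 15977936 for RIS1 and RIS2, with a biological coefficient of variation of 0.0468. Counting intervals and the floor of 3 counts cover counting error only. The labels do not say that libraries come from separate experiments, so p-values measure only the spread between these libraries. Alternatives were DESeq2 1.42.0, limma 3.58.1 on log2(FPKM + 1), log2(FPKM + 0.1) and log2(TPM + 1), RLE size factors, library size only, no filter, a mean of at least 5 FPKM, a gene length offset, replicate blocks and each library left out. Named genes are all members, all other Rassf genes, 12 core genes of the pathway and its targets, up to 4 genes per role with the largest called change and no overlap in FPKM, and the 5 genes nearest to Rassf2, of which 1 is not reported here. Other genes named among the cofactors, scaffolds, inhibitors and targets were chosen after their values were seen. Promoter windows and positions are from RefSeq on GRCm38.p6 and exon overlaps from GENCODE M21. Tables were read with Python 3.11.15 and pandas 2.3.3.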

Additional observations from a re-analysis of the deposited data

How the results depend on the processing

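The 9 members in the fit kept their direction under the alternatives run, except Lats1, which ran from −0.17 to 0.17 on the log2 scale, and Yap1, which ran from −0.22 to 0.10. With log2(TPM + 1) and limma, 1536 genes rose and 5292 fell, 7 of the pathway list rose and 36 fell, and the members were at 0.29 for Rassf1, 2.50 for Rassf2, −0.55 for Rassf8, 0.30 for Stk3, −0.46 for Stk4, −0.17 for Lats1, −0.42 for Lats2, −0.22 for Yap1 and 0.11 for Wwtr1. Tead2 turned to −0.07 there. With limma on log2(FPKM + 1), Rassf2 was at 2.47, Rassf8 at −0.39, Stk3 at 0.44, Yap1 at −0.08 and Wwtr1 at 0.25, and with a pseudocount of 0.1 Rassf2 was at 2.79, Rassf8 at −0.42, Stk3 at 0.45, Lats2 at −0.30, Yap1 at −0.08 and Wwtr1 at 0.25. Library size as the only scaling gave 0.44 for Stk3, −0.30 for Lats2, −0.07 for Yap1 and 0.25 for Wwtr1. The length offset gave −0.13 for Rassf8, −0.15 for Stk4, 0.17 for Lats1, −0.12 for Lats2, 0.10 for Yap1 and 0.43 for Wwtr1. With a mean of at least 5 FPKM, 7 of 12 target genes rose and Wwtr1 was at 0.32. The median of all genes, 0.00 in the edgeR fit, was −0.22 on log2(TPM + 1) and −0.09 with library size as the only scaling. It was −0.08 on log2(FPKM + 1), −0.09 with a pseudocount of 0.1 and 0.00 with the length offset. The cause of these shifts was not tested, apart from the fewer genes that the stricter filter leaves. Leaving out each library in turn gave 2666 to 3310 genes higher and 2725 to 3350 lower, Rassf1 at 0.43 to 0.66, Rassf2 at 2.87 to 3.00, Rassf8 at −0.34 to −0.11, Stk3 at 0.49 to 0.58, Stk4 at −0.33 to −0.16, Lats1 at −0.02 to 0.14, Lats2 at −0.25 to −0.16, Yap1 at 0.00 to 0.05 and Wwtr1 at 0.33 to 0.36. The lowest sizes of Rassf8 and Stk4 were those without RIS1. A lone library left in a treatment is assumed to vary like the others.

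The replicate numbers are not said to mark a shared day, and the differences between replicates of the treatments correlated at −0.12. With a replicate block, 3292 genes rose and 3321 fell, 12 of the pathway list rose and 20 fell, and 11 target genes rose and 2 fell. With the crossed pairing, chosen after seeing the data, 3474 genes rose and 3519 fell, and 16 of the pathway list rose and 23 fell. With pooled cultures and 2 libraries a treatment, depth limits the genes with few counts, such as Rassf3, Ctgf and Ankrd1.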
